A study of Mus musculus with 12 samples.

Results

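The 6 genes described here encode intermediate filament proteins: the neurofilament light, medium and heavy chains (Nefl, Nefm and Nefh), peripherin (Prph), alpha-internexin (Ina) and vimentin (Vim). They were taken by symbol, with earlier results of these data known. All 6 were present among the 13178 genes of one deposited table and the 21650 genes of the other. Expression had been measured by RNA sequencing of polyA RNA from the dorsal root ganglia that feed the sciatic nerve, in the C57BL/6J mouse strain. There were 4 groups of 3 libraries, 12 in all.

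Every group had a spinal cord injury (SCI), and neurons of the L4-6 ganglia were taken 72 h after it from mice described as 8 weeks old, so no uninjured ganglion is among the groups. One experiment used adeno-associated virus (AAV) with either green fluorescent protein (AAV-GFP, the control) or transketolase (AAV-TKT), injected through the sciatic nerve for 4 weeks. The Tkt product, transketolase, catalyses reversible steps of the pentose phosphate pathway. In the other, mice received 10% ribose or vehicle, and no virus is named. The sources used here give no promoter for the virus, no route for ribose and no share of neurons reached by the virus. They do not say that the 3 libraries of a group came from separate mice, so p-values below measure the spread between these libraries, which may be technical.

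Intermediate filament proteins share an alpha-helical rod through which they pair and assemble into ropes. In neurons the light chain is the core on which the medium and heavy chains co-assemble, and the long tails of the medium and heavy chains, which are heavily phosphorylated on lysine-serine-proline repeats, project between filaments and are linked to axon calibre. Heavy chain is best known from large myelinated sensory neurons and peripherin from small unmyelinated ones, alpha-internexin is a further subunit of neuronal filaments, and vimentin is the filament of glia, fibroblasts, vessels and leukocytes.

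The shared rod is shown first because all 6 genes carry it. These are 30 coding bases at the conserved end of the rod, 5′ to 3′ on each gene's own strand, from GENCODE M21 on GRCm38, with capitals for the 20 positions at which all 6 genes have the same base.
Nefl: gCtTACAGaAAaCTctTgGAaGGcGAaGAG
Nefm: gCgTACAGgAAaCTccTaGAgGGgGAaGAG
Nefh: gCtTACAGaAAgCTccTgGAaGGcGAaGAG
Prph: aCcTACAGgAAgCTacTgGAaGGgGAgGAG
Ina: gCtTACAGgAAgCTccTgGAaGGtGAaGAG
Vim: aCcTACAGgAAgCTgcTgGAaGGcGAgGAG
Against Nefl, the stretch differed at 2 positions in Nefh, 4 in Ina, 6 in Nefm, 7 in Vim and 8 in Prph. It lies within 1 exon in Prph (chr15:99057444-99057473) and Vim (chr2:13580204-13580233), and it crosses an exon junction in Nefl, Nefm, Nefh and Ina.

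Longer matches between genes were rare. Of the 31-base words of each main transcript, none in Nefl, Nefh or Ina occurred in a transcript of another gene, and the share was 0.151% in Nefm, 0.416% in Vim and 0.600% in Prph.

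The heavy chain stands apart in its tail. Nefh has 51 Lys-Ser-Pro codon triplets in its coding sequence, Nefm has 4, and the other 4 genes have 0. The 240 coding bases of Nefh with the most triplets, at chr11:4940830-4941069 on the minus strand of GRCm38, hold 13 of them, shown in capitals, and carry the phosphorylation sites for which the protein is known.
Nefh tail: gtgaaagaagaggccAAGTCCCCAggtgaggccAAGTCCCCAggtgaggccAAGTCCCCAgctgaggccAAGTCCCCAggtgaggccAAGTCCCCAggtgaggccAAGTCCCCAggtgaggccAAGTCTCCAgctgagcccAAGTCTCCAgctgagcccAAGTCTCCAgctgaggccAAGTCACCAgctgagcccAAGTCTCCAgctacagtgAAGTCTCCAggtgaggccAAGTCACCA
Because of such repeats, 8.63% of the 31-base words of the Nefh transcript occur more than once within it.

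Nefl (ENSMUSG00000022055) lies on chromosome 14 from 68083863 to 68089095, with 4 exons. Nefm (ENSMUSG00000022054) is on the opposite strand of the same chromosome, from 68082590 to 68124846, and through a long alternative transcript its annotated span contains the whole of Nefl. The 2 genes share 1108 exonic bases, which are 32.8% of the Nefl exons and 19.2% of those of Nefm. The library kit keeps strand, but no source used here says whether the counting used it. Nefh (ENSMUSG00000020396; chromosome 11, 4938754 to 4948064, 4 exons), Prph (ENSMUSG00000023484; chromosome 15, 99055174 to 99058978, 8 exons), Ina (ENSMUSG00000034336; chromosome 19, 47014698 to 47025327, 3 exons) and Vim (ENSMUSG00000026728; chromosome 2, 13573927 to 13582826, 9 exons) are on separate chromosomes. Ina shares 456 exonic bases, 14.1% of its exons, with the antisense gene Nt5c2.

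Promoter sequences from RefSeq (GRCm38.p6) matched 3 of the 6 genes, Vim, Prph and Ina. Only these are shown because Nefl, Nefm and Nefh had no entry, and a link between these sequences and expression was not tested. The stretches run from 40 to 11 bases before the annotated start, with capitals for TATAAA on the gene's strand.
Vim: aacagtgtTATAAAagcagcgcccttggcg
Prph: ccgcagggcTATAAAgccgccccgcatcgg
Ina: caaccccgcgccttaaaagccccgcacacc
TATAAA began 32 bases before the start in Vim (chr2:13574271-13574300) and 31 before it in Prph (chr15:99055134-99055163), and these letters were not in the Ina window (chr19:47014641-47014670). Of 32851 promoters in the same table, 2.08% hold TATAAA in this window on the gene's strand and 2.66% on either strand.

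Values are FPKM, fragments scaled by gene length and library depth, as the authors deposited them. Totals per AAV library ran from 413635 to 456084 FPKM and per ribose library from 510551 to 551370, with no read depth stated. The tables were normalized separately, so levels are compared only within a table. Tkt, the transgene, lay at 98.1 to 106 FPKM in the 3 AAV-GFP libraries and at 223 to 262 in the 3 AAV-TKT libraries, as labelled. One RNA, Rn7s2, held 6.32% to 12.6% of the FPKM of an AAV library and 18.7% to 26.7% of that of a ribose library. Pan-neuronal markers summed to 3874 to 5322 FPKM over the 12 libraries, and markers of Schwann cells (294 to 487) and satellite glia (155 to 512) were also present, so the libraries named for neurons also hold glial transcripts. Csf1r, Cd68, Aif1 and C1qa, macrophage genes, were each listed at 0 in at least 1 library of the ribose table. In such bulk samples, fewer cells of a type and less RNA per cell cannot be told apart.

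The filament genes were among the most abundant transcripts of the ganglion. Nefl ranked 2 to 3 among all genes in the AAV libraries and 6 to 22 in the ribose libraries, and Prph ranked 15 to 20 and 13 to 24. Nefm (30 to 41 and 46 to 189) and Nefh (25 to 43 and 53 to 244) followed, then Vim at ranks 358 to 1097 and 257 to 1750. Ina was far less abundant, at ranks 4888 to 5828 and 3617 to 6119. The order by mean FPKM was Nefl, Prph, Nefm, Nefh, Vim and Ina in every group except AAV-TKT, where Nefh stood above Nefm at 819 against 808 FPKM. The ranges of 1 SD around Nefm and Nefh met in all 4 groups, although Nefh per Nefm was below 1 in each control and ribose library, and the SD ranges of Nefl and Prph met in Vehicle only. FPKM divides by a gene length that no source used here states: the merged exons are 1.73 times as long as the main transcript for Nefm and 2.16 times for Vim, so their place in this order depends on that choice, while ratios of a gene between libraries do not.

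**Figure D1:**
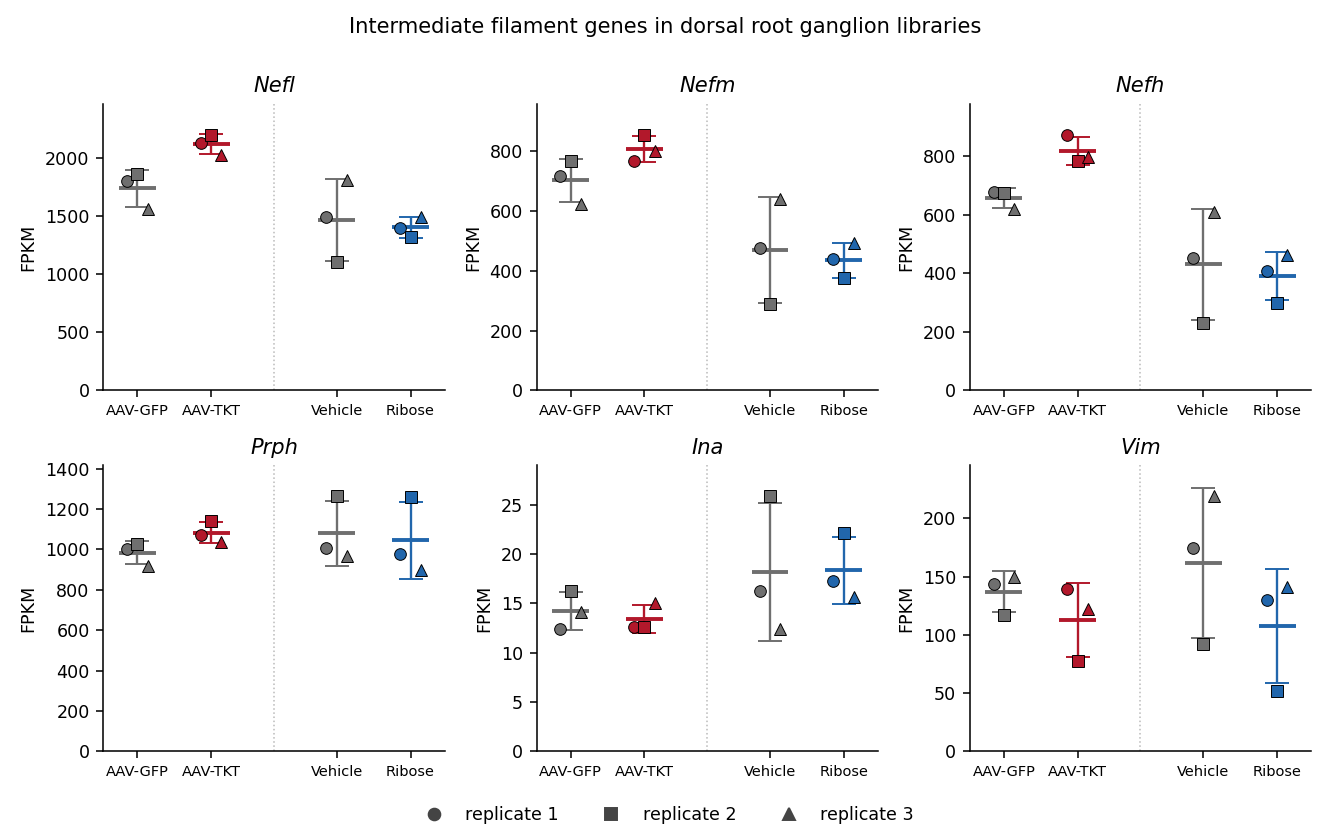
FPKM of the 6 filament genes by group, with 1 panel per gene and its own axis from 0; points are libraries, with the shape giving the replicate number, thick bars are means and whiskers are 1 SD (n = 3). All 3 AAV-TKT libraries lie above all 3 AAV-GFP libraries for Nefl, Nefm, Nefh and Prph, while every gene overlaps between Vehicle and Ribose; the dotted line separates tables that were normalized separately.

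The first comparison was of transketolase with GFP. All 3 neurofilament chains and peripherin had higher mean levels in the AAV-TKT libraries, by 1.10 to 1.24 times, with no overlap between the groups, whereas Ina and Vim overlapped. None of the 6 passed the test across all genes (limma-trend on log2(FPKM + 1), Benjamini-Hochberg adjusted p under 0.05), which called 0.0152% of 13178 genes, 1 of them higher and 1 lower (0.00759% each). At an unadjusted p under 0.05 there were 2 of the 6, Nefl and Nefh, among 1395 genes in the table. Groups that did not overlap, with AAV-TKT higher, were found for 11.3% of all genes, against 4 of these 6. With AAV-TKT lower, such groups were found for 7.2% of all genes and 0 of these 6.

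Nefl, the light chain, stood at 1796, 1858 and 1557 FPKM in AAV-GFP libraries 1 to 3 and at 2124, 2197 and 2024 in AAV-TKT libraries 1 to 3. AAV-GFP 3 was the lowest library, and the lowest AAV-TKT library was above the highest control. The means were 1737 ± 159 and 2115 ± 86.6 FPKM (SD, n = 3), a difference of 0.29 on the log2(FPKM + 1) scale (SE 0.11, 95% interval 0.02 to 0.55, limma adjusted p = 0.449).

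Nefm, the medium chain, had 717, 766 and 625 FPKM in AAV-GFP and 767, 855 and 801 in AAV-TKT. The groups were apart by about 1 FPKM, between AAV-GFP 2 and AAV-TKT 1. The difference was 0.20 log2 units (SE 0.10, 95% interval -0.04 to 0.45, limma adjusted p = 0.510).

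Nefh, the heavy chain, had the largest difference of the 4 neuronal genes whose groups were apart. Its levels were 679, 675 and 619.7 FPKM in AAV-GFP and 873, 785 and 797 in AAV-TKT. AAV-TKT 1 was the highest library, and it was not the highest for Nefl, Nefm or Prph. Means of 658 ± 33.1 and 819 ± 47.9 FPKM gave 0.31 log2 units (SE 0.09, 95% interval 0.11 to 0.52, limma adjusted p = 0.378).

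Prph, peripherin, was at 1002, 1028 and 919.7 FPKM in AAV-GFP and at 1073, 1140.0 and 1037 in AAV-TKT. The highest control and the lowest treated library were only about 8 FPKM apart. The difference was 0.14 log2 units (SE 0.09, 95% interval -0.08 to 0.36, limma adjusted p = 0.595).

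Ina, alpha-internexin, had 12.4, 16.2 and 14.1 FPKM in AAV-GFP and 12.6, 12.6 and 15.0 in AAV-TKT, which overlap throughout. Its difference was -0.08 log2 units (SE 0.11, 95% interval -0.35 to 0.19, limma adjusted p = 0.816). Vim, vimentin, had 144, 117 and 150.0 FPKM in AAV-GFP and 139, 77.7 and 122 in AAV-TKT. AAV-TKT 2 was the low library, and without it the difference of -0.31 (SE 0.21, 95% interval -0.80 to 0.18, limma adjusted p = 0.599) became -0.06.

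How many of these genes lay apart depended on the scale. With every library set to the same total, Nefl and Nefh remained apart, at 0.22 and 0.24 log2 units, and Nefm (0.13) and Prph (0.07) overlapped, while 5.08% of all genes were higher without overlap. With the totals set equal without Rn7s2, or by the median of ratios, all 4 stayed apart, beside 6.40% and 8.91% of all genes. Without AAV-GFP 3, the lowest library for all 4 genes, the deposited FPKM gave 0.21 for Nefl, 0.12 for Nefm, 0.27 for Nefh and 0.09 for Prph.

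Ratios between members in a library are free of that scale. Prph per Nefl was 0.558, 0.553 and 0.591 in AAV-GFP and 0.505, 0.519 and 0.512 in AAV-TKT. All 3 treated libraries were below all 3 controls, with means of 0.567 ± 0.0204 and 0.512 ± 0.00686 (SD, n = 3), a log2 difference of -0.15 (exact permutation test, two-sided, p = 0.1, which is the smallest that 3 against 3 can give). Prph per Nefh was 1.48, 1.52 and 1.48 against 1.23, 1.45 and 1.30, and Nefm per Nefl was 0.399, 0.412 and 0.401 against 0.361, 0.389 and 0.396. Neither overlapped between groups, with log2 differences of -0.17 and -0.08 (exact permutation p = 0.1 for each). Nefh per Nefl did not follow, with means of 0.380 ± 0.0175 and 0.387 ± 0.0275 (exact permutation p = 0.8). Over the 14 ratios tested in the 2 tables, the adjusted value for the 3 at the smallest p was 0.467.

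Expressed as a part of the FPKM of the 5 neuronal filament genes, Prph made up 23.8%, 23.7% and 24.6% in AAV-GFP libraries 1 to 3 and 22.1%, 22.8% and 22.2% in AAV-TKT libraries 1 to 3. Nefl made up 42.7%, 42.8% and 41.7% against 43.8%, 44.0% and 43.3%. The part of Prph was lower and that of Nefl higher in all 3 AAV-TKT libraries, by 1.65 and 1.32 percentage points on average, while Nefm, Nefh and Ina overlapped. These parts depend on the gene lengths used. The 5 genes together held 0.903% to 1.11% of all FPKM in the AAV libraries and 0.528% to 0.789% in the ribose libraries.

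**Figure D2:**
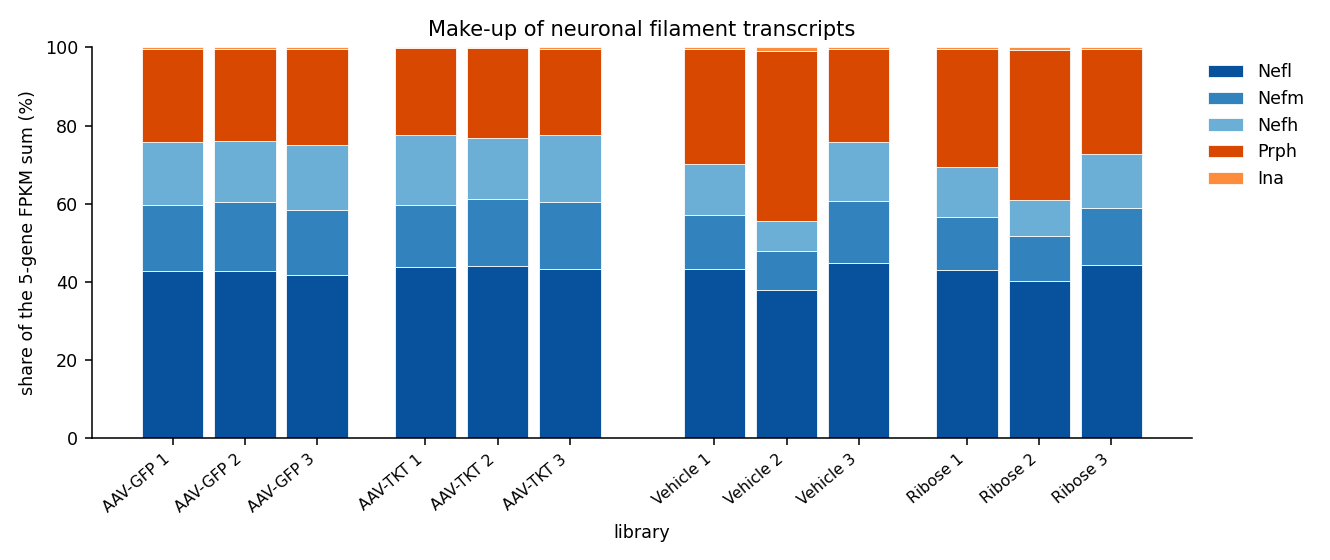
Make-up of the FPKM sum of Nefl, Nefm, Nefh, Prph and Ina in each of the 12 libraries; the x axis gives the library and the y axis the share in percent, from 0 to 100. Vehicle 2 and Ribose 2 have the largest Prph parts, 43.4% and 38.5%, while the 6 AAV libraries lie between 22.1% and 24.6%.

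The second comparison was of ribose with vehicle. None of the 6 genes differed beyond the spread between libraries, and none was apart between groups, whereas 9.63% of all genes in this table were apart, 4.28% higher and 5.35% lower. The limma fit called 0 of the 6 and 0.00724% of 13804 genes, 1 gene in all, and at an unadjusted p under 0.05 there were 0 of the 6 among 661 genes in the table. The spread within groups was wide. From the lowest to the highest Vehicle library, Nefl ranged over 1.64 times, Nefm over 2.23, Nefh over 2.64 and Vim over 2.38, and from the lowest to the highest Ribose library over 1.13, 1.31, 1.54 and 2.72 times.

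Nefl stood at 1487, 1104 and 1806 FPKM in Vehicle libraries 1 to 3 and at 1393, 1316 and 1491 in Ribose libraries 1 to 3. All 3 Ribose libraries lay between the lowest and the highest Vehicle library. The difference was -0.04 log2 units (SE 0.18, 95% interval -0.46 to 0.38, limma adjusted p = 0.9998, the value for each of the 6 genes).

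Nefm had 478, 288 and 641 FPKM in Vehicle and 438, 375 and 492 in Ribose, and Nefh had 453, 230.3 and 608 against 409, 299.9 and 462. Vehicle 2 was the lowest library for all 3 neurofilament chains and Vehicle 3 the highest, with the 3 Ribose libraries inside that range. The differences were -0.04 for Nefm (SE 0.27, 95% interval -0.68 to 0.60) and -0.05 for Nefh (SE 0.34, 95% interval -0.86 to 0.75).

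Prph had 1008, 1265 and 969 FPKM in Vehicle and 977, 1258 and 899 in Ribose, so Vehicle 2 and Ribose 2 were high and the other 4 libraries lay between 899 and 1008. Its difference was -0.05 log2 units (SE 0.16, 95% interval -0.43 to 0.32). Ina had 16.3, 25.9 and 12.4 FPKM in Vehicle and 17.3, 22.2 and 15.6 in Ribose, again highest in Vehicle 2 and Ribose 2, with a difference of 0.06 (SE 0.27, 95% interval -0.57 to 0.69).

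Vim had 174, 92.1 and 219 FPKM in Vehicle and 130.1, 51.9 and 141 in Ribose. In both groups library 2 was the lowest, and the difference of -0.62 log2 units (SE 0.44, 95% interval -1.66 to 0.42) was the largest of the 6 in either experiment. It rests largely on Ribose 2: without that library it was -0.17, and leaving out each library in turn gave -0.98 to -0.17. The satellite glia markers, 253 to 512 FPKM in Vehicle and 155 to 351 in Ribose, had negative differences in 4 of 4 genes, with a median of -0.79 and 0 called; their part in the Vim result was not tested.

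Vehicle 2 and Ribose 2 stood apart from the other 4 libraries in these genes. Leaving out both, an alternative chosen after the data were seen, gave differences of -0.19 for Nefl, -0.25 for Nefm, -0.27 for Nefh, -0.08 for Prph, 0.20 for Ina and -0.53 for Vim, with limma adjusted p from 0.608 to 0.879.

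**Figure D3:**
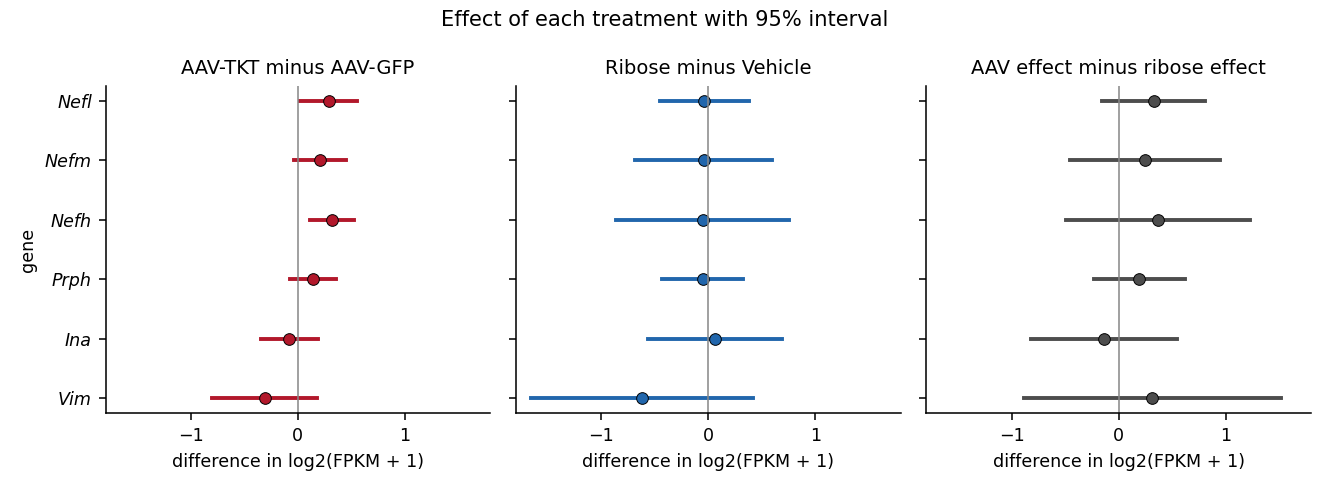
Difference in log2(FPKM + 1) for each gene in 3 panels: AAV-TKT minus AAV-GFP, Ribose minus Vehicle, and the first difference minus the second; points are estimates and bars 95% intervals from limma. Intervals are narrower in the AAV panel for all 6 genes, and the interval for Nefh there runs from 0.11 to 0.52 against -0.86 to 0.75 for ribose.

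The difference between the 2 treatments was tested by itself over the 12 libraries. Nefl had 0.33 (95% interval -0.16 to 0.81), Nefh 0.37 (-0.49 to 1.23), Vim 0.31 (-0.89 to 1.51), Nefm 0.25 (-0.46 to 0.95), Prph 0.19 (-0.23 to 0.62) and Ina -0.14 (-0.82 to 0.55), as the AAV effect minus the ribose effect. None of the 6 was called, with limma adjusted p from 0.835 to 0.966 and 0 of 6 at an unadjusted p under 0.05, and the fit called 0.00778% of 12853 genes. The effects are therefore not shown to differ, and each interval reaches at least 0.62 log2 units from 0 on one side. Without Vehicle 2 and Ribose 2 the values for Nefl, Nefm and Nefh were 0.47, 0.46 and 0.59 (limma adjusted p = 0.282, 0.347 and 0.216). Leaving out 1 library at a time gave 0.16 to 0.52 for Nefl, -0.016 to 0.56 for Nefm and 0.065 to 0.76 for Nefh, each lowest without Vehicle 3 and highest without Vehicle 2.

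What varied in the ribose experiment was the balance between neuronal filament genes, and it varied between libraries of the same group. Prph per Nefh was 2.23, 5.49 and 1.59 in Vehicle and 2.39, 4.20 and 1.95 in Ribose. It was highest in Vehicle 2 and Ribose 2 and spanned 3.45 times over the 6 libraries, while the group difference was 0.00 on the log2 scale (exact permutation p = 1). Prph per Nefl was likewise highest there, at 1.15 and 0.956, against 0.537 to 0.701 in the other 4. In Vehicle 2, Prph exceeded Nefl. Nefh per Nefm was steadier, at 0.948, 0.800 and 0.949 in Vehicle and 0.935, 0.801 and 0.938 in Ribose, with the same 2 libraries low.

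The 3 chains ranked the 6 ribose libraries identically, from lowest to highest Vehicle 2, Ribose 2, Ribose 1, Vehicle 1, Ribose 3 and Vehicle 3. Ina had exactly the reverse order. Prph also had Vehicle 2 highest and Ribose 2 next, but its lowest library was Ribose 3. Vim had an order of its own from lowest to highest, Ribose 2, Vehicle 2, Ribose 1, Ribose 3, Vehicle 1 and Vehicle 3. The order of Nefh did not recur in the other 5 genes in the AAV experiment.

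**Figure D4:**
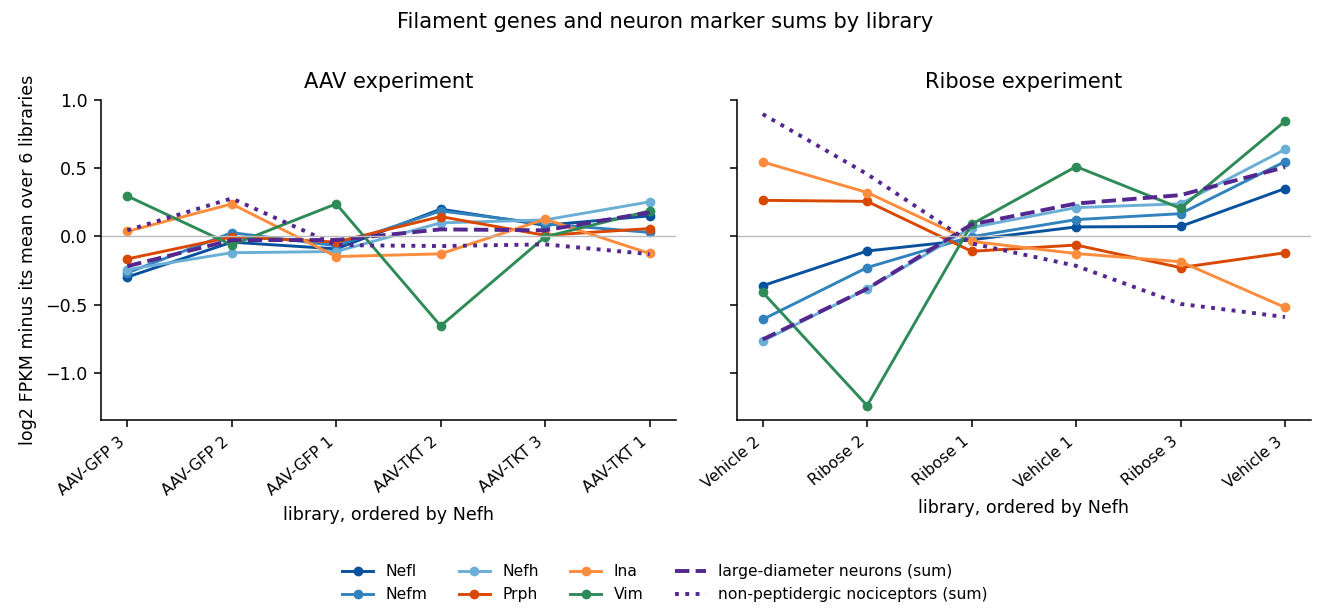
Log2 FPKM of each filament gene minus its mean over the 6 libraries of its experiment (y axis), with libraries ordered by Nefh (x axis); purple lines give the summed FPKM of markers of large-diameter neurons (dashed) and non-peptidergic nociceptors (dotted). In the ribose panel the 3 neurofilament chains climb from Vehicle 2 to Vehicle 3 as Ina declines.

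In the ribose experiment the marker sums of 2 sensory neuron classes had library orders found among these genes. The peptidergic nociceptor sum had the order of no member, but exactly the reverse of the order of Vim, and a link between them was not tested. In the AAV experiment no marker sum had the order of Nefh or Ina. Nefl and Prph shared an order there, and the red cell sum had exactly its reverse, a link that was not tested. Markers of large-diameter neurons (Pvalb, Ntrk3, Ntrk2, Runx3, Kcns1, Asic1, Slc17a7 and Cntn1) summed to 475, 238 and 571 FPKM in Vehicle and 427, 308 and 496 in Ribose, which is the library order of the 3 neurofilament chains. Those of non-peptidergic nociceptors (Mrgprd, P2rx3, Scn11a, Lpar3, Mrgprb4 and Mrgpra3, with 1 further marker taken out after the data were seen and not reported here) summed to 311, 672 and 240.2 in Vehicle and 349, 496 and 257 in Ribose, the order of Ina. In the AAV experiment the large-diameter sum was 451 to 514 FPKM in AAV-GFP and 540 to 592 in AAV-TKT, without overlap, with 7 of 8 genes positive and a median of 0.17 against 0.01 for all genes. Of these 8 markers, 4 were apart and higher and 1, Ntrk2 (-0.30), was apart and lower, beside 11.3% and 7.2% of all genes. The non-peptidergic sum was 269 to 341 in AAV-GFP and 257 to 270.1 in AAV-TKT, which overlap. The pan-neuronal sum was 3874 to 4423 in AAV-GFP and 4502 to 5184 in AAV-TKT, with a median of 0.21 over 8 genes. No marker in these lists was called by limma in either table, and at an unadjusted p under 0.05 there were 3 large-diameter and 2 pan-neuronal markers in the AAV table and 0 in the ribose table. Over all genes there were 1395 of 13178 in the AAV experiment and 661 of 13804 in the ribose experiment. The part of these markers in the levels of Nefl, Nefm, Nefh, Prph and Ina was not tested.

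Markers of non-neuronal cells were mostly lower in the AAV-TKT libraries. Schwann cell markers summed to 344 to 379 FPKM in AAV-GFP and 294 to 326 in AAV-TKT, neutrophil markers to 89.3 to 241 and 18.5 to 28.8, red cell markers to 113 to 471 and 71.5 to 94.2, and macrophage markers to 31.3 to 44.0 and 11.6 to 17.1. Most of the macrophage sum was Lyz2, at 23.7 to 34.9 FPKM in AAV-GFP and 7.77 to 10.5 in AAV-TKT. All 4 macrophage markers tested had negative differences, but only 2 were apart, beside 7.2% of all genes apart and lower. Of the neutrophil markers 6 of 6 were apart and lower, of the red cell markers 5 of 5, and of the Schwann cell markers tested 2 of 5. In these 3 lists 0 were apart and higher. C1qb (-0.15) overlapped. No gene of these lists was called by limma in either table, and their part in the higher neurofilament levels was not tested. Satellite glia markers overlapped, at 248 to 344 against 199 to 293, with AAV-TKT 2 lowest as for Vim. Mural cell markers summed to 37.3 to 53.6 in AAV-GFP and 24.9 to 32.1 in AAV-TKT, fibroblast markers to 26.1 to 55.0 and 23.7 to 28.8, and those of peptidergic nociceptors to 1826 to 1930 and 1648 to 2488. In the ribose experiment Schwann cell markers were at 427 to 487 FPKM in Vehicle and 379 to 393 in Ribose, without overlap, and the peptidergic sum, at 1579 to 2245 and 1767 to 2496, overlapped. The macrophage (4.71 to 34.8), neutrophil (11.1 to 153), red cell (14.4 to 226), mural (41.4 to 68.1), fibroblast (16.02 to 51.0) and endothelial (2.68 to 12.8; none listed in the AAV table) sums there overlapped between groups, and each was lowest in Ribose 2, the library with the lowest Vim.

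**Figure D5:**
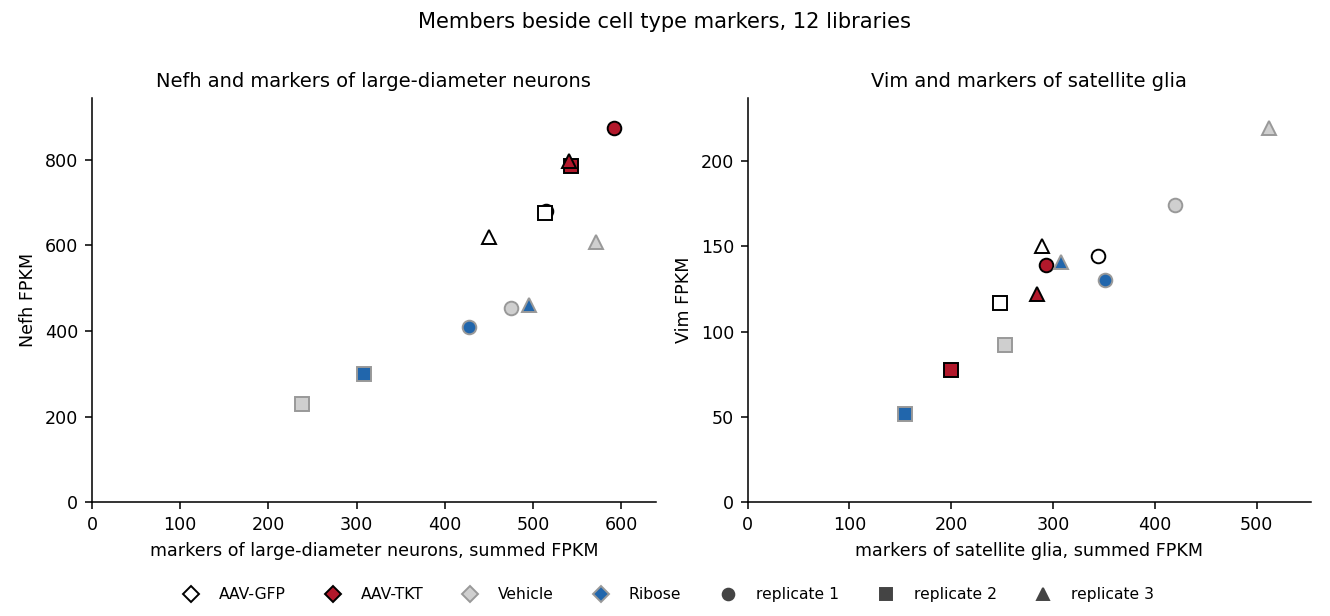
Nefh against the summed FPKM of large-diameter neuron markers (left) and Vim against that of satellite glia markers (right); each point is 1 of 12 libraries, with colour for group and shape for replicate, and the 2 tables were normalized separately. In each experiment Nefh is lowest where its markers are lowest, at 230.3 FPKM in Vehicle 2, and the lowest Vim levels, 51.9 in Ribose 2 and 77.7 in AAV-TKT 2, stand at the lowest satellite glia sums.

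The genes most like each member across the 12 libraries, with each table centred on its own mean, were ranked by Pearson r among 8898 genes; the libraries share their makeup and scale, so these r are descriptions. For Nefl they were Snap25, a synaptic fusion protein, and Spock1 (r = 0.967 for both). For Nefm they were Map7d2 (0.986) and Vsnl1 (0.983), for Nefh S100b (0.985) and Nsg1 (0.983), and for Prph the tubulin gene Tubb5 (0.974) and Gga2 (0.973). For Ina they were Trpa1, an irritant-gated channel of nociceptors (0.984), and Syt9 (0.978), and for Vim Sema3b (0.990) and Cmtm5 (0.988). The spread was not made equal between the experiments, so the ribose libraries, over which each member ranged more widely, weigh more in these r. Within the AAV libraries alone r ran from 0.906 (Ina with Trpa1) to 0.983 (Nefl with Spock1). Within the ribose libraries alone it ran from 0.967 (Nefl with Spock1) to 0.998 (Ina with Syt9).

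Genes that act on filaments were followed in 4 lists, and none was called by limma in either table. Of 16 neurofilament kinases and phosphatases, 13 had positive and 3 negative differences with AAV-TKT, with a median of 0.11 against 0.01 for all genes. An unadjusted limma p under 0.05 was found for 3 of the 16, beside 1395 of 13178 genes. Groups were apart and higher for 5 of the 16 and apart and lower for 1, beside 11.3% and 7.2% of all genes. Rock1, a kinase that phosphorylates filament heads, was at 5.08, 5.96 and 6.82 FPKM in AAV-GFP and 4.47, 4.16 and 4.28 in AAV-TKT, apart and lower (-0.38, limma adjusted p = 0.378). Cdk5r1, the p35 activator of the tail kinase Cdk5, was at 20.1, 20.8 and 19.6 against 21.4, 24.4 and 23.2 FPKM (0.18). Prkaca, a protein kinase A catalytic subunit, was at 127 to 142 against 149 to 158 (0.18), and both genes were apart and higher. With ribose the same list had 4 positive and 12 negative values, with a median of -0.05 against -0.02 for all genes. Mapk8, the kinase JNK1, was apart and higher there, at 26.6 to 28.9 FPKM in Vehicle and 30.6 to 43.0 in Ribose (0.41, limma adjusted p = 0.9998). Gsk3a (-0.17) was apart and lower, and Mapk10 (-0.22) overlapped. With ribose 4.28% of all genes were apart and higher and 5.35% apart and lower.

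Of the 12 transport and turnover genes, 10 had positive and 2 negative differences with AAV-TKT, with a median of 0.09 against 0.01 for all genes. An unadjusted limma p under 0.05 was found for 2 of the 12, beside 1395 of 13178 genes. Groups were apart and higher for 3 of the 12 and apart and lower for 1, Ogt (-0.15), beside 11.3% and 7.2% of all genes. Hspb1, a small heat shock protein mutated in axonal neuropathy, was at 321, 271 and 300.0 FPKM in AAV-GFP and 378, 399 and 355 in AAV-TKT. The groups were apart, with a difference of 0.34 (limma adjusted p = 0.378), close in size to that of Nefh. Bag3, a co-chaperone (0.18), and Capn2, a calpain protease (0.17), also had no overlap and adjusted p of 0.451 and 0.472. With ribose, 10 of the 12 were negative with a median of -0.03, none was apart between groups, and the 3 with the smallest p were Trim2 (-0.13), Capn1 (-0.13) and Ogt (0.13).

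The plakins tie filaments to actin, microtubules and junctions. The 3 tested were 2 positive and 1 negative with AAV-TKT, Plec at 0.18, Dst at 0.09 and Macf1 at -0.03, and all 3 were negative with ribose. Macf1 was at 52.7, 55.6 and 51.9 FPKM in Vehicle and 43.9, 47.1 and 40.5 in Ribose, apart and lower by value (-0.28, limma adjusted p = 0.9998). Dst (-0.14) was also apart and lower, and Plec (-0.05) overlapped. Such lower groups were found for 5.35% of all genes.

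The other intermediate filament genes were at lower levels than the neurofilaments and peripherin, and some, Synm and Lmna among them, were above Ina. Of 12 such genes, 6 were listed in the AAV table, with 4 positive and 2 negative differences and a median of 0.08. Synm, synemin, was at 79.2 to 92.3 FPKM in AAV-GFP and 83.8 to 101.4 in AAV-TKT (0.10), the nuclear lamin Lmna at 41.6 to 48.2 and 44.3 to 52.1 (0.08), and Lmnb1 at 1.39 to 2.43 and 1.07 to 1.59 (-0.39). With ribose, 7 of the 12 reached a mean of 1 FPKM, with 4 positive and 3 negative and a median of 0.13. Krt8, a keratin, was at 2.63, 0.598 and 0.605 FPKM in Vehicle and 4.55, 1.44 and 4.14 in Ribose (0.97, limma adjusted p = 0.9998), which overlap, followed by Iffo1 (0.19) and Lmnb1 (0.18). Gfap, a glial filament, did not exceed 0.904 FPKM there, and Krt18 was listed at 0 in 4 of 6 libraries.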

How the data were processed

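PolyA RNA was sequenced in 12 libraries, 3 per group. Per the submitters' processing notes, bcl2fastq 2.20, FastQC and Trim Galore were used with the GRCm38 build; the aligner, counter, gene lengths and strand setting were not given in the sources used. The authors deposited FPKM values in 2 tables, identified by Ensembl gene, which were treated as separately normalized; the control columns of the ribose table were taken as the vehicle libraries of the same number. FPKM are not counts, and the read depth is unknown, so no counting interval is given.

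Genes whose mean reached 1 FPKM were fitted per table with limma 3.58.1 (R 4.3.3, eBayes with trend) on log2(FPKM + 1), a scale that understates the change of low genes, with Benjamini-Hochberg adjustment over all genes tested and a threshold of 0.05, two-sided. The difference between the 2 effects was fitted over 12 libraries with 4 group means. Each of 7 ratios between members was compared by an exact permutation test (scipy 1.17.1) in each table. Shares and lists are descriptions.

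The members, 4 pathway lists (other intermediate filament genes, plakin linkers, neurofilament kinases and phosphatases, filament transport and turnover) and 12 cell type marker lists were chosen with earlier results of these data known. One marker of non-peptidergic nociceptors was taken out of its list after the data were seen and is not reported here. Named genes are the 6 members, any called gene of a pathway list and then those with the smallest p, up to 3 per list and experiment, the 2 genes most like each member among those with a mean of at least 5 FPKM in both tables, and markers at 0. Other markers are named to define a list. Gfap and Krt18, the markers Lyz2, C1qb and Ntrk2, and Ogt with AAV-TKT were chosen after their values were seen. Alternatives were other pseudocounts, filters and scalings, library weights, the replicate block and leaving out libraries. Sequences were read from GENCODE M21 transcripts and RefSeq promoters.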

Additional observations from a re-analysis of the deposited data

How the results depend on the processing

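No alternative brought any of the 6 genes past the threshold in either experiment or in the difference between them. Over 318 fits of a member the lowest limma adjusted p was 0.192, and 299 kept the direction of the main fit. The 299 include fits that could not change direction, since the filters and the replicate block leave the estimate itself as it was. Removing the filter in the AAV experiment, and median-of-ratios scaling with ribose, also left the members at their main values. The 19 fits that changed direction fell on 9 of the 18 member effects. With library weights Ina with AAV-TKT was 0.087, and with totals made equal without Rn7s2 Nefl and Nefm with ribose were 0.0047 and 0.0014. Leaving out 1 library at a time gave -0.17 to 0.012 for Ina with AAV-TKT; with ribose it gave -0.23 to 0.13 for Nefl, -0.36 to 0.22 for Nefm, -0.45 to 0.25 for Nefh, -0.20 to 0.065 for Prph and -0.17 to 0.33 for Ina. For the difference between effects it gave -0.016 to 0.56 for Nefm, -0.41 to 0.090 for Ina and -0.14 to 0.67 for Vim. Of the ratios, Nefh per Nefl with AAV-TKT ranged from -0.017 to 0.085, and with ribose Nefm per Nefl from -0.13 to 0.095, Nefh per Nefl from -0.22 to 0.12, Ina per Nefl from -0.30 to 0.58, Prph per Nefl from -0.25 to 0.29, Nefh per Nefm from -0.094 to 0.063 and Prph per Nefh from -0.38 to 0.51. Without Vehicle 2 and Ribose 2 together, chosen after the data were seen, Prph per Nefl with ribose was 0.11. Leaving out 1 library, the shares with AAV-TKT were 0.966 to 1.52 percentage points for Nefl and -1.89 to -1.36 for Prph, Nefh and Ina kept their sign, and Nefm reached 0.0032 from -0.44. With ribose all 5 shares changed sign, with -1.41 to 2.01 points for Nefl, -1.66 to 1.33 for Nefm, -2.26 to 1.32 for Nefh, -4.55 to 5.16 for Prph and -0.12 to 0.17 for Ina.

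The number of genes called over the whole table was small and moved. For AAV-TKT against AAV-GFP it was 2, with 5 at a pseudocount of 0.1, 4 with a filter of 5 FPKM, 4 with equal totals, 0 with the replicate block, 23 with library weights and 1 to 40 when leaving out 1 library, the 40 without AAV-GFP 2. For Ribose against Vehicle it was 1, with 2 at a pseudocount of 0.5, 2 with equal totals, 3 without Vehicle 2 and Ribose 2, and 1 to 4 when leaving out 1 library. For the difference between effects it was 1, with 2 at a pseudocount of 0.1, 12 without Vehicle 2 and Ribose 2, and 1 to 3 when leaving out 1 library. The cause of these moves was not tested.

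The replicate numbers were not taken as pairs. The deviations of same-numbered libraries correlated at 0.03, 0.07 and -0.01 in the AAV table and 0.04, 0.36 and 0.16 in the ribose table, and not every library correlated best with its own number. With the replicate block no member was called, and Vim with ribose had -0.62 (95% interval -0.87 to -0.38, limma adjusted p = 0.496). The read depth is unknown, so what depth limits cannot be stated; 3 libraries a group limit each interval, and in the ribose table the interval for Nefh is wide enough to hold the AAV effect.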
